A study of Homo sapiens with 22 samples.

Results

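Solute carriers are membrane proteins that move nutrients, ions, vitamins, neurotransmitters and drugs across the plasma membrane and the membranes of organelles. The genes described here are those whose symbol has the form of a solute carrier (SLC, a family number, A and a member number) or of an organic anion transporter (SLCO). By that rule there were 38 among the 2221 genes of a table of 8 glioblastoma cell lines and 72 among the 5383 genes of a table of 3 further lines. Together they were 100 different genes of 6825, and 10 of them stood in both tables. The name table used for matching holds 349 symbols of this form, and the other 249 were not analysed here. Genes of families with other letters, such as SLC35B, were left out by the rule.

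RNA was sequenced from 11 established, untreated human glioblastoma lines, with 2 libraries per line and 22 in all. A-172, KNS-42, LN-18 and LN-229 were grown in DMEM, AM-38, T98G, U-138MG and U-87MG in EMEM, and KALS-1, SNU-466 and SNU-1105 in RPMI. Serum was 20% for AM-38 and 10% for the rest. The medium and the line cannot be told apart. Nothing in the labels says that the paired libraries were grown as separate cultures. The p-values therefore rest on library-to-library spread alone, which may be technical. Each line is 1 established line, so differences are between these lines and not between kinds of tumour.

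Nutrient uptake through these carriers is a textbook part of tumour cell growth. Glutamine and other neutral amino acids enter through carriers such as SLC1A5 and SLC38A2. Cystine enters in exchange for glutamate through SLC7A11, which needs the heavy chain SLC3A2, and is used to make glutathione. Glucose enters through SLC2A1 and SLC2A3, and lactate crosses the membrane through SLC16 carriers. In glioma, glutamate released by SLC7A11 is known for its effect on neighbouring neurons.

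SLC7A11 is a textbook target of the stress factors ATF4 and NRF2, and SLC3A2 and SLC7A5 of ATF4, so the promoters of the members were searched for the letters of their binding motifs. The search used RefSeq promoters of GRCh38.p14, from 250 bases before each start, on both strands, for 76 of the 100 members (112 promoters). TGATGNAA, the core of the ATF4 element, stood in 3 of 112 member promoters (2.68%) against 3.14% of all 35116 promoters. TGACNNNGC, the core of the NRF2 element, stood in 13 (11.6%) against 10.9%. The 2 motifs can overlap. Of the 22 amino acid members, 17 had a promoter in the table, and matches were found in SLC1A5, SLC3A2 and SLC7A1. SLC7A11 has no entry in the table and was not searched. They are shown because the levels of these 3 carriers and of their partners are described next. Each line runs 5′ to 3′ on the strand of the gene with the match in capitals. The first SLC1A5 window is at chr19:46784894-46784921 (minus strand), the second at chr19:46787386-46787414 (minus strand, with the motif read on the opposite strand). That of SLC3A2 is at chr11:62881652-62881680 (plus strand) and that of SLC7A1 at chr13:29595755-29595783 (minus strand).
SLC1A5, TGATGNAA: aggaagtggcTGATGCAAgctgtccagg
SLC1A5, TGACNNNGC: cctggatcttGCGAGGTCAgctcccgctc
SLC3A2, TGACNNNGC: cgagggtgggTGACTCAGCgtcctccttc
SLC7A1, TGACNNNGC: tgcccggcggTGACGCGGCcgagcgggcc
The member shares were close to those of all promoters, and a match of letters does not show binding. The SLC1A5 and SLC3A2 windows lie ahead of starts inside those genes and overlap annotated exons of the same gene.

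Levels are given as FPKM, which scales the read count by the length of the gene and the total of the library. Library totals, recovered from the deposited counts and FPKM, ran from 16958700 to 21213200 reads, of which the listed genes held 5.81 to 10.2% where 8 lines were tabulated and 21.8 to 37.1% where 3 were. In 9 lines, 95.2 to 99.4% of listed genes agreed within 1.5-fold between the 2 libraries. For SNU-1105 the share was 88.0% and for T98G 82.2%. Of 9 genes of a glioma and astrocyte list, the 8-line table holds VIM and SOX2. VIM had line means of 240 to 955 FPKM. SOX2 was at 319 in KNS-42, 43.3 in LN-229, 42.2 in SNU-1105 and 1.04 in KALS-1, and at 0.0106 to 0.13 in T98G, LN-18, U-87MG and U-138MG. The 3-line table holds GFAP, S100B and NES, which summed to 1046 and 1045 in SNU-466, 60.0 and 58.0 in A-172 and 24.6 and 25.2 in AM-38. S100B alone had a mean of 958 in SNU-466. NES, most of the sum in A-172 and AM-38, was at 84.2 in SNU-466, 58.8 in A-172 and 24.0 in AM-38. Of the 6 genes of an oligodendrocyte and Schwann cell list, the 3-line table holds 5, and their summed level in SNU-466 was 465 and 487 FPKM. The same sum was 0.289 and 0.198 in A-172, with MOG and PMP2 at 0 reads, and 1.00 and 1.12 in AM-38, with PMP2 at 0 reads. The 4 listed fibroblast and pericyte genes summed to 1033 and 1033 in SNU-466, 16.9 and 15.7 in A-172 and 21.9 and 21.4 in AM-38. COL1A2 alone had a mean of 944 in SNU-466, with ACTA2 at 68.9, DCN at 14.1 and LUM at 6.03. In AM-38 most of the sum was ACTA2, at 20.3. Of the 5 genes of an epithelial list, the 3-line table holds 2, the keratins KRT8 and KRT18. They summed to 472 and 452 in A-172, 85.7 and 79.1 in AM-38 and 0.0919 and 0.135 in SNU-466. The 4 epithelial genes of the 8-line table (with CDH1 and KRT19) summed to 88.1 and 94.1 in LN-18, 71.5 and 66.1 in KALS-1, 37.8 and 19.3 in T98G, 8.0 to 19.6 in KNS-42, LN-229 and SNU-1105, and 0.17 to 0.687 in U-138MG and U-87MG. KRT18 was most of the sum, with means of 66.8 in LN-18, 58.7 in KALS-1 and 26.6 in T98G. CDH1 was at 1.33 in LN-18 and 1.57 in KALS-1, and KRT19 at 0.618 and 0.381. Both had 0 reads in T98G. The part of these markers in the results below was not tested.

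Each table was fitted apart with edgeR's quasi-likelihood test on the counts. That test takes a single spread per gene over all lines of a table, though T98G and SNU-1105 libraries agreed less closely. The p-values of every line rest on this pooled spread. A gene was said to differ when the test over all lines had an adjusted p under 0.05 and line means 2-fold or more apart. All 38 members differed among the 8 lines, where 99.7% of the 2095 tested genes did. All 68 tested members of 72 differed among the 3 lines, where 98.3% of 5035 genes did. The members' share is therefore that of the tables. How the listed genes were chosen is not stated: in 99.3% of genes of the 8-line table the mean over T98G, LN-18 and KALS-1 was 2-fold or more from the mean over the other 5 lines, and in 93.9% of genes of the 3-line table SNU-466 was 2-fold or more from the other lines. All 38 members were apart in this way in the first table, 20 higher and 18 lower in the KALS-1, LN-18 and T98G mean, where 40.4% of genes were higher. In the second, 69 of 72 were. Of the 72, 33 were higher and 39 lower in SNU-466, where 45.8% of genes were higher. The median distance between the highest and the lowest line was 6.77 on the log2 scale for members and 6.87 for all tested genes of the 8-line table, and 3.23 against 3.82 in the 3-line table.

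A line was said to be above every other line when the gene was at least 2-fold higher than in each of them with an adjusted p under 0.05 for the weakest of those comparisons, and below by the same rule. Lines next to each other in a gene's order are said not to separate where their own comparison missed an adjusted p of 0.05, which does not show that their levels are equal. For a run of lines this covers only the steps within the run, and the ends of the run may be far apart. Among the 8 lines, 10 of 38 members were above in some line, against 42.4% of genes, and 3 were below, against 10.9%. Among the 3 lines, 40 of 68 were above, against 64.8%, and 38 below, against 60.7%. These shares are descriptions with no test of their difference. The 10 fell in KALS-1 (3, background 8.21%), KNS-42 (2, 7.97%), LN-18 (2, 8.97%), T98G (2, 3.96%) and U-87MG (1, 5.11%). For all listed genes the share above was 0.621% in SNU-1105, and the share below was 1.62% in KALS-1 and 3.63% in T98G.

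**Figure D1:**
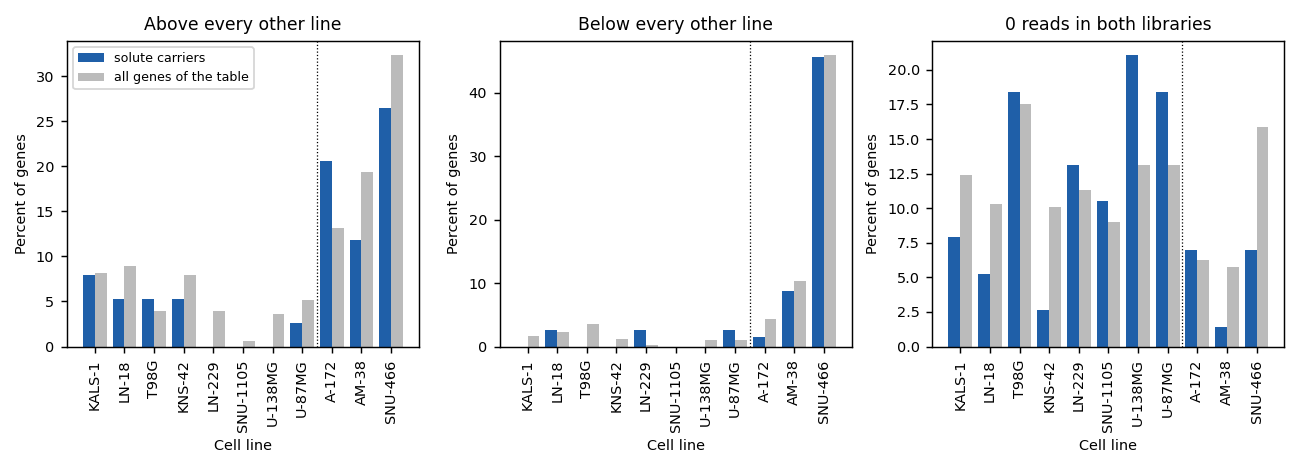
Percent of solute carrier genes (blue) and of all genes of the same table (grey) that were above every other line, below every other line, or at 0 reads in both libraries, per cell line, with the 8-line table left of the dotted line and the 3-line table right of it. In SNU-466, 31 of 68 tested members were below both other lines, 45.6% against 45.9% of all tested genes.

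Among the amino acid carriers of the 8-line table (12 members), T98G and LN-18 were the lines with the highest means of SLC7A11, SLC38A2, SLC1A5 and SLC7A2. SLC7A11, the cystine and glutamate exchanger, was at 137 and 145 in T98G, 106 and 98.2 in LN-18, 46.9 and 56 in SNU-1105, 23.4 and 17.6 in U-87MG, 15.5 and 12.6 in KNS-42, 9.1 and 9.76 in LN-229, 7.42 and 4.58 in U-138MG and 2.95 and 3.38 in KALS-1. T98G and LN-18 lay above the libraries of every other line, and T98G and LN-18 differed by 0.47 on the log2 scale with an adjusted p of 0.0876 (edgeR), which did not pass. The next line, SNU-1105, was below LN-18 by 0.99 on that scale (adjusted p = 0.000599, edgeR). From the top to KALS-1, the lowest, the means were 44.6-fold apart. SLC7A11 (ENSG00000151012) lies at chr4:138164097-138242349 on the minus strand of GRCh38. An antisense gene, SLC7A11-AS1, overlaps its exons, and whether the counting used strand is not stated.

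SLC38A2, a sodium-coupled carrier of small neutral amino acids, had the highest line mean of the 8-line table's members. The gene (ENSG00000134294) lies at chr12:46358189-46372867 on the minus strand. Its libraries were at 286 and 255 in LN-18, 306 and 228 in T98G, 124 and 115 in U-87MG, 115 and 99.1 in LN-229, 104 and 105 in KALS-1, 104 and 87.4 in U-138MG, 80.5 and 87.7 in SNU-1105 and 54.3 and 46.6 in KNS-42. LN-18 and T98G overlapped each other and lay above the rest. T98G was above U-87MG, next in order, by 1.16 (log2, adjusted p = 1.81e-05, edgeR). U-87MG, LN-229, KALS-1, U-138MG and SNU-1105 could not be separated from their neighbours in the order, and KNS-42 was lowest, below SNU-1105 by 0.74 (adjusted p = 0.00227, edgeR).

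SLC1A5, which brings in glutamine, was at 137 and 163 in T98G, 92 and 94.5 in LN-18, 81.5 and 71.9 in U-87MG, 39.6 and 45.4 in LN-229, 42.1 and 39 in KALS-1, 35.6 and 43.2 in SNU-1105, 25.2 and 30.0 in KNS-42 and 20.5 and 21.3 in U-138MG. T98G was highest without overlap and exceeded LN-18 by 0.69 on the log2 scale (adjusted p = 0.00446, edgeR), while LN-18 and U-87MG did not separate (adjusted p = 0.167). The order held U-138MG and KNS-42 at the bottom. SLC7A2, a carrier of arginine and lysine, was close to an on and off pattern, with 8.77 and 6.42 in T98G and 6.46 and 6.06 in LN-18, and 0 to 0.096 in the libraries of the other 6 lines. U-138MG had 0 reads of it, which allows up to 0.00951 FPKM (3 reads over the line). T98G and LN-18 were not separated (log2 difference 0.28, adjusted p = 0.436, edgeR), so neither was above every other line.

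With T98G left out of the fit, 7 members were above every other line in LN-18, against 13.8% of genes: SLC7A2, SLC38A2, SLC1A7, SLC12A8, SLC30A3, SLC52A3 and SLC17A9. With T98G in, 2 were. Of the 7, SLC1A7, SLC30A3 and SLC17A9 had low LN-18 means of 0.153, 0.366 and 0.303 FPKM. Without T98G, SLC9A9, SLC26A4 and SLC22A23 were below every other line in LN-18, against 5.95% of genes. LN-18 was grown in DMEM and T98G in EMEM.

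**Figure D2:**
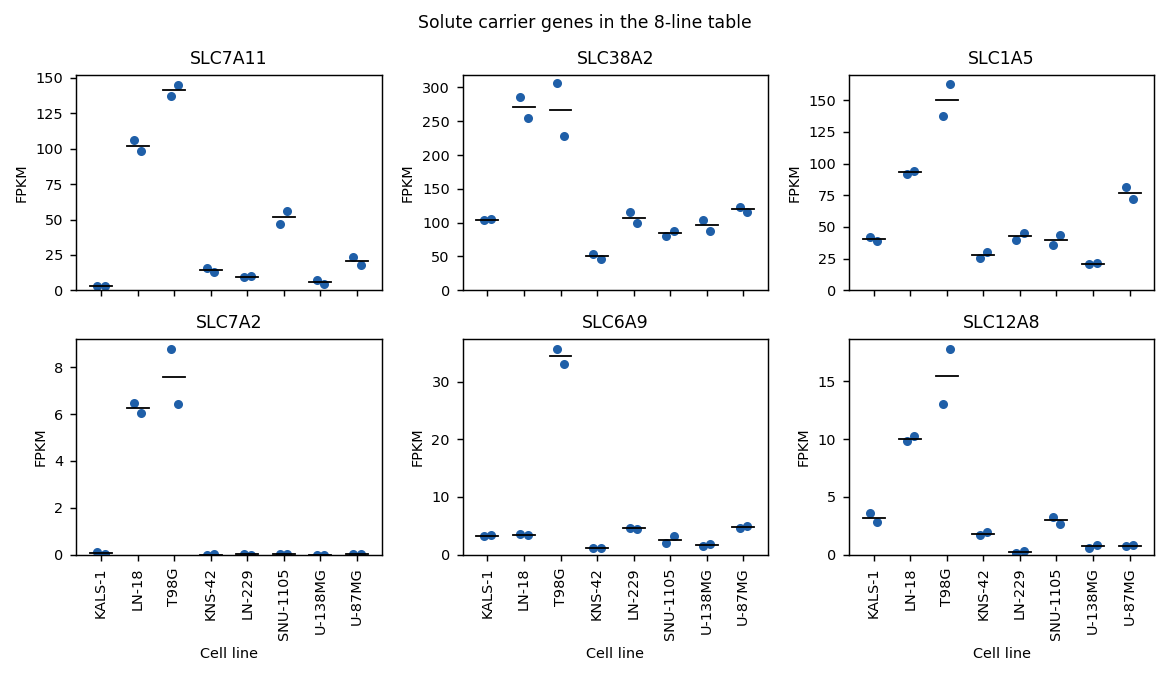
FPKM of 6 members in the 16 libraries of the 8-line table; each point is a library and each horizontal line the mean of the 2 libraries of a cell line. SLC7A11, SLC38A2, SLC7A2 and SLC12A8 are highest in T98G and LN-18, SLC1A5 and SLC6A9 in T98G.

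Other amino acid carriers marked other lines. SLC6A15, a neutral amino acid transporter of neurons, was at 4.47 and 4.09 in U-87MG, 3.17 and 2.16 in U-138MG and 1.59 and 1.51 in KNS-42, and 0 to 0.0379 FPKM elsewhere, with 0 reads in KALS-1. U-87MG and U-138MG did not separate (adjusted p = 0.0644, edgeR), and U-138MG exceeded KNS-42 (adjusted p = 0.0299). SLC6A20, an imino acid (proline) carrier, was the only amino acid member above every other line: KALS-1 had 1.16 and 1.06 FPKM and no other line more than 2 reads in its libraries (adjusted p = 2.32e-07, edgeR). SLC6A16, an orphan relative, was highest in the same line at 1.2 and 1.25, with 0.502 and 0.7 in T98G and 0 reads in KNS-42. SLC15A3, a lysosomal carrier of peptides and histidine, split the lines in steps. It was at 1.63 and 1.37 in T98G, 1.49 and 1.33 in KALS-1 and 1.08 and 1.39 in LN-18, at 0.604 and 0.596 in U-87MG and at 0.00736 to 0.0658 in the remaining lines. The first 3 did not separate from their neighbours, and LN-18 was over U-87MG by 1.04 (log2, adjusted p = 0.00249, edgeR). SLC15A1 (peptides), SLC1A7 (glutamate), SLC38A3 and SLC38A5 (glutamine) never reached 1 FPKM in a line mean.

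Of the carriers of neurotransmitters and related solutes, SLC6A9, the glycine transporter GlyT1, set T98G apart. Its libraries were at 35.7 and 33 in T98G, 4.54 and 5.0 in U-87MG, 4.68 and 4.48 in LN-229, 3.58 and 3.33 in LN-18, 3.25 and 3.35 in KALS-1, 1.97 and 3.15 in SNU-1105, 1.41 and 1.75 in U-138MG and 1.06 and 1.16 in KNS-42. T98G lay 7.21-fold over U-87MG, above every other line by 2.85 on the log2 scale (adjusted p = 7.05e-08, edgeR), and the libraries of all other lines ran from 1.06 to 5.0. Exons of CCDC24 overlap it on the other strand. SLC17A9, the vesicular nucleotide (ATP) transporter, was called above in LN-18 at 0.354 and 0.252 FPKM, with 0 or 1 read in every other line (adjusted p = 0.000164, edgeR); DESeq2 did not call it. SLC6A12, the betaine and GABA carrier, was at 0.231 and 0.144 in KALS-1, next 0.0393 and 0.0478 in LN-18, and at 0 reads in T98G, U-138MG and U-87MG. It passed only just (adjusted p = 0.0365, edgeR) and the call for SLC6A12 in KALS-1 was lost without any 1 of the KALS-1, KNS-42 or LN-18 libraries, with log2 differences of 1.70 to 2.37. SLC6A12 in KALS-1 was also not called under RLE scaling (1.86), by DESeq2 (2.10), by limma with a prior count of 0.5 (1.96) or with the replicate block (2.05).

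SLC2A1, the glucose transporter GLUT1, was the only sugar carrier of the 8-line table. It was at 124 and 54.2 for T98G, 54.4 and 57 for LN-18, 44.2 and 58.7 for SNU-1105, 49.3 and 48.5 for KALS-1, 20.9 and 28.2 for LN-229, 24.4 and 23.1 for KNS-42, 13.9 and 13.6 for U-87MG and 9.33 and 11.6 for U-138MG. The T98G libraries were far apart and the second fell within the range of LN-18, SNU-1105 and KALS-1, and the top 4 lines did not separate from their neighbours (T98G against LN-18, adjusted p = 0.0516, edgeR). KALS-1 exceeded LN-229 by 1.00 (log2, adjusted p = 0.00417, edgeR), and U-138MG and U-87MG were lowest. Exons of AC099795.1 on the same strand overlap SLC2A1.

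Among the 9 carriers of inorganic ions, SLC20A1, the sodium phosphate cotransporter PiT1, was most abundant. Its libraries were at 106 and 106 in U-87MG, 104 and 89 in LN-229, 76.5 and 82.3 in U-138MG, 72.8 and 50.7 in SNU-1105, 52.2 and 53.8 in LN-18, 27.9 and 26.2 in T98G, 18.4 and 19.2 in KALS-1 and 15.7 and 15.6 in KNS-42. No step passed from U-87MG through LN-229, U-138MG and SNU-1105 to LN-18, though the ends of this run were at 106 and 106 against 52.2 and 53.8. LN-18 exceeded T98G by 0.97 (log2, adjusted p = 0.000277, edgeR). KALS-1 and KNS-42 were lowest. SLC12A8, a member of the cation chloride cotransporter family, was also highest in T98G and LN-18, with 13.1 and 17.8 in T98G, 9.82 and 10.3 in LN-18, 3.58 and 2.79 in KALS-1, 3.27 and 2.69 in SNU-1105, 1.67 and 1.97 in KNS-42, 0.769 and 0.804 in U-87MG, 0.604 and 0.813 in U-138MG and 0.17 and 0.327 in LN-229. LN-229 was below every other line (log2 difference -1.51 to U-138MG, adjusted p = 0.0326, edgeR, where 0.191% of genes were). The call for SLC12A8 in LN-229 was lost without LN-229 replicate 1 or without either library of KALS-1, KNS-42, LN-18, U-138MG or U-87MG, at differences of -1.11 to -1.66.

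SLC24A2, a potassium-dependent sodium and calcium exchanger of neurons, was at 2.12 and 2.26 in U-87MG, 1.65 and 1.66 in SNU-1105, 0.273 and 0.254 in LN-229, 0.0428 and 0.0278 in LN-18, 0 and 0.014 in KNS-42, 0.00965 and 0 in T98G, 0 and 0.00928 in KALS-1 and 0 reads in U-138MG. U-87MG and SNU-1105 did not separate (adjusted p = 0.323, edgeR), and SNU-1105 stood above LN-229 by 2.65 (log2, adjusted p = 7.34e-06). The 0 reads in U-138MG allow up to 0.00684 FPKM. KNS-42 was above every other line in 2 members of this class. SLC26A9, a chloride carrier, was at 1.01 and 1.29 in KNS-42, 0.0607 and 0.0975 in U-87MG and 0.0722 and 0.0622 in SNU-1105, and at most 2 reads elsewhere, with 0 in LN-229 and T98G. KNS-42 exceeded the next line by 3.85 on the log2 scale (adjusted p = 1.94e-05, edgeR). SLC9A2, a sodium proton exchanger, was at 1.68 and 2.01 in KNS-42 against 0.0859 and 0.0662 in T98G, and at 0 reads in SNU-1105, U-138MG and U-87MG (log2 difference 4.57, adjusted p = 8.55e-07, edgeR). The endosomal exchanger SLC9A9 was highest in U-138MG (3.38 and 3.26) and lowest in LN-18 (0.0646 and 0.0504). The anion exchangers SLC26A4 and SLC26A8 and the bicarbonate carrier SLC4A10 stayed under 1 FPKM in every line mean; exons of TBR1 overlap SLC4A10 on the same strand.

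The table held 4 metal carriers. SLC11A2, the iron importer DMT1, was at 22.8 and 27.2 for U-87MG, 7.83 and 7.59 for LN-229, 6.73 and 7.25 for KNS-42, 5.78 and 6.26 for T98G, 5.23 and 5.35 for U-138MG, 5.04 and 4.37 for SNU-1105, 4.37 and 4.74 for LN-18 and 2.63 and 2.63 for KALS-1. U-87MG was above every other line by 1.70 on the log2 scale (adjusted p = 1.93e-06, edgeR), and both its libraries lay over all others. LN-229, KNS-42, T98G, U-138MG, SNU-1105 and LN-18 did not separate from their neighbours, and KALS-1 was lowest (against LN-18, adjusted p = 0.00113, edgeR). SLC30A1, which exports zinc from the cell, ran from 18.9 and 19.7 in KNS-42 to 3.43 and 3.85 in KALS-1 with no neighbours in the order separated. SLC39A10, a zinc importer, ran from 16.7 and 13.8 in U-138MG to 1.43 and 3.5 in T98G, with 1 step that passed, U-87MG over LN-18 (0.91, adjusted p = 0.0072, edgeR). The vesicular zinc carrier SLC30A3 was highest in LN-18 at 0.344 and 0.388.

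SLC22A23, an orphan of the organic ion family, was at 8.61 and 11.6 in SNU-1105, 6.75 and 6.45 in U-138MG, 6.44 and 6.76 in KNS-42, 4.32 and 4.3 in U-87MG, 2.15 and 2.61 in KALS-1, 0.725 and 1.27 in T98G, 0.693 and 0.478 in LN-229 and 0.199 and 0.274 in LN-18. LN-18 was below every other line (log2 difference -1.31 to LN-229, adjusted p = 0.00956, edgeR, where 2.24% of genes were). The call for SLC22A23 in LN-18 was lost without LN-18 replicate 1 (-1.10), LN-18 replicate 2 (-1.56) or LN-229 replicate 1 (-1.01), and under TMM (-0.84) and RLE (-0.68) scaling. SLC44A1, a choline carrier, was at 23.3 and 20.7 in KNS-42, 11.9 and 13.8 in SNU-1105, 12.9 and 11.5 in LN-229, 10.1 and 10.4 in KALS-1, 10.1 and 10.0 in U-87MG, 5.54 and 5.4 in U-138MG, 4.18 and 4.09 in LN-18 and 3.33 and 4.58 in T98G. KNS-42 was highest and exceeded SNU-1105 by 0.77 (log2, adjusted p = 0.00174, edgeR), short of 2-fold, and LN-18 and T98G were lowest without separating.

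SLC46A3, a carrier of the lysosomal membrane, was at 8.72 and 13.3 for T98G, 7.5 and 8.3 for KALS-1, 4.57 and 4.66 for LN-18, 3.11 and 3.43 for KNS-42, 1.87 and 2.14 for U-138MG, 1.78 and 1.68 for LN-229, 1.09 and 1.25 for SNU-1105 and 0.168 and 0.119 for U-87MG. U-87MG was below every other line, with a log2 difference of -3.01 to SNU-1105 (adjusted p = 1.72e-05, edgeR, where 1.05% of genes were), and no library overlapped. The riboflavin carrier SLC52A3 was at 1.12 and 1.0 in LN-18 against 0.0709 and 0.0293 in T98G (log2 difference 4.35, adjusted p = 5.31e-06, edgeR), and at 0 reads in U-87MG. The thiamine carrier SLC19A3 was at 1.01 and 0.928 in LN-229, 0.911 and 0.938 in U-87MG and 0.364 and 0.454 in KNS-42, and at 0 reads in T98G, which allows up to 0.0107 FPKM.

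SLC27A2, which imports and activates very long chain fatty acids, was read almost wholly in 1 line. KALS-1 had 2.59 and 2.71 FPKM from 272 reads, KNS-42 had 2 reads, SNU-1105 had 1, and LN-18, LN-229, T98G, U-138MG and U-87MG had 0. The 0 reads allow up to 0.0265 FPKM in U-87MG and 0.0299 in T98G. The fit put KALS-1 above every other line with an adjusted p of 1.19e-06 (edgeR). SLC27A2 (ENSG00000140284) lies at chr15:50182196-50236395 on the plus strand, and exons of ATP8B4 overlap it on the other strand. SLC25A36, a mitochondrial carrier of pyrimidine nucleotides, was at 41.6 and 30.4 in T98G, 12.9 and 13.7 in KALS-1, 12 and 12.4 in U-87MG, 11.5 and 9.34 in U-138MG, 9.31 and 8.19 in LN-18, 6.46 and 10.9 in SNU-1105, 8.45 and 8.02 in KNS-42 and 6.49 and 5.42 in LN-229. T98G exceeded KALS-1, next in order, by 1.44 on the log2 scale (adjusted p = 0.000249, edgeR). Among the other 7 lines no step to the next line passed, though they ran from 12.9 and 13.7 in KALS-1 to 6.49 and 5.42 in LN-229.

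**Figure D3:**
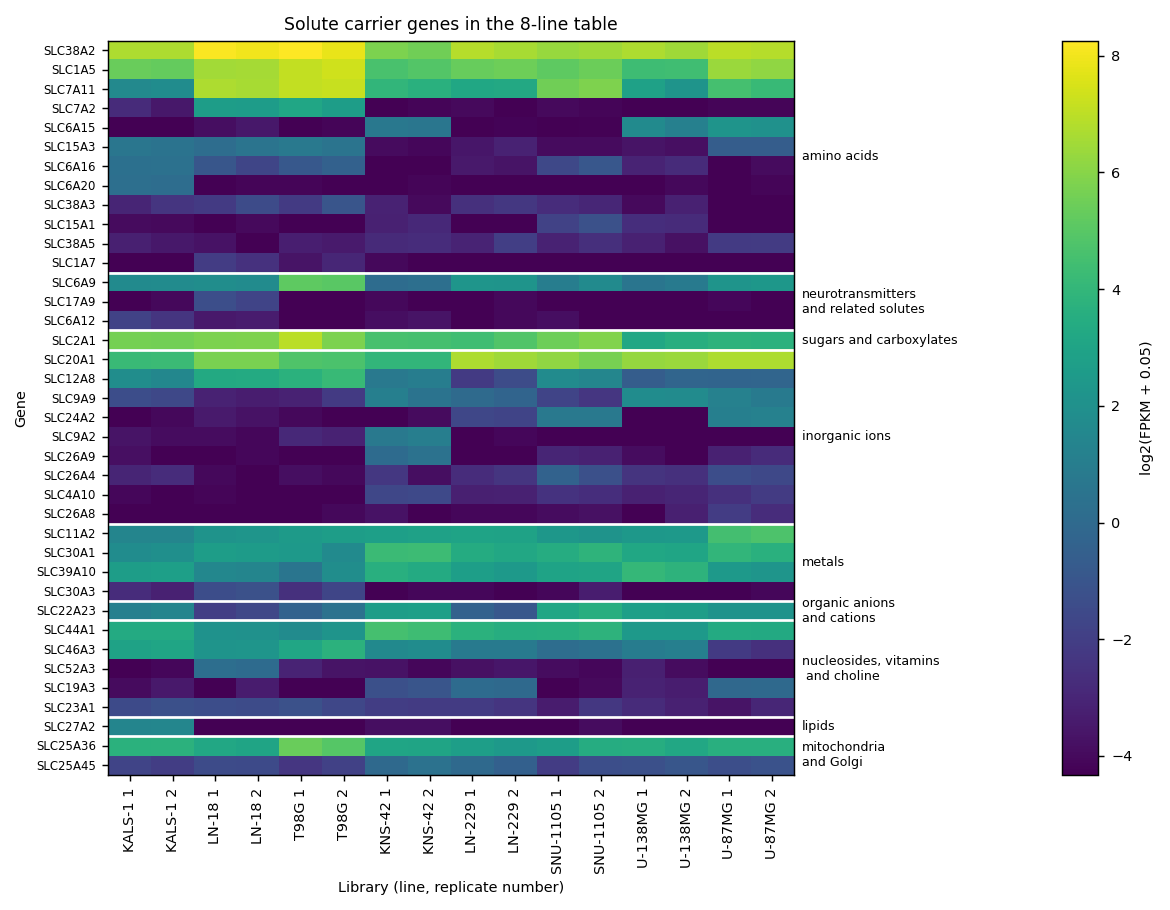
Level of the 38 members of the 8-line table in each of the 16 libraries, as log2(FPKM + 0.05), grouped by substrate class and ordered within a class by highest level. Dark cells at the bottom of the scale are libraries at or near 0 reads, such as SLC27A2 outside KALS-1 and SLC7A2 outside T98G and LN-18.

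In all, 18 of 38 members had 0 reads in both libraries of at least 1 line, against 39.1% of genes. U-138MG had 8 such members (13.1% of genes), T98G 7 (17.5%), U-87MG 7 (13.1%), LN-229 5 (11.3%), SNU-1105 4 (9%), KALS-1 3 (12.4%), LN-18 2 (10.3%) and KNS-42 1 (10.1%). SLC1A7 and SLC27A2 were at 0 in 5 lines each, and SLC9A2, SLC15A1, SLC17A9 and SLC6A12 in 3. With up to 3 reads a library allowed in place of 0, the counts rose to 9 to 13 a line, and KNS-42, with 1 member at 0, had 12.

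Of the 13 amino acid carriers of the 3-line table, 6 were below both other lines in SNU-466 and 2 above. SNU-466 was 2-fold or more from the other lines in 69 of 72 members. The choice of genes may have rested on that, so the p-values of SNU-466 are no separate evidence of it. Over all classes, SNU-466 was below in 31 of 68 members, against 45.9% of genes, and above in 18, against 32.3%, so neither share was over that of the table. SLC3A2, the heavy chain that carries several amino acid transporters to the membrane, was at 64.1 and 61 in AM-38, 35.7 and 34.8 in A-172 and 8.48 and 9.0 in SNU-466. SNU-466 was below A-172 by a log2 difference of -2.01 (adjusted p = 5.27e-51, edgeR). Its light chains SLC7A5 and SLC7A11 were below in the same line. SLC7A5, the large neutral amino acid transporter LAT1, was at 68.7 and 67.8 in A-172, 40.1 and 36.7 in AM-38 and 8.02 and 8.54 in SNU-466 (log2 difference to AM-38 -2.21, adjusted p = 2.29e-51, edgeR). SLC7A11 was at 26.9 and 33.2 in A-172, 15.7 and 17.6 in AM-38 and 0.88 and 0.924 in SNU-466 (-4.20, adjusted p = 5.43e-60, edgeR). The order of the lines was not shared: AM-38 was highest for SLC3A2, and A-172 for SLC7A5 and SLC7A11.

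SLC38A1, a sodium-coupled glutamine carrier, was at 27.7 and 28 in A-172, 20.4 and 22.5 in AM-38 and 3.22 and 3.03 in SNU-466, and the LAT2 light chain SLC7A8 at 0.513 and 0.497 in A-172, 0.15 and 0.109 in AM-38 and 0.0295 and 0.0255 in SNU-466. Both were below in SNU-466. The arginine carrier SLC7A1 was also lowest in SNU-466, with 24.6 and 25.6 in AM-38, 16.1 and 14.6 in A-172 and 8.41 and 8.16 in SNU-466, without reaching 2-fold under A-172. SLC38A5, a carrier of glutamine and glycine, was at 19.7 and 18.3 in AM-38 and at 0.0383 and 0.0247 in A-172 and 0.0147 and 0.0254 in SNU-466. AM-38 was above by 9.17 on the log2 scale (adjusted p = 1.97e-57, edgeR), 604-fold over the 5 reads of A-172. SLC6A15 showed the same line: 1.58 and 1.72 in AM-38 against 1 read in each of the others. SLC1A1, the glutamate and cysteine carrier EAAT3, went the other way, with 9.5 and 8.62 in SNU-466, 1.52 and 1.85 in A-172 and 0.0119 and 0.0505 in AM-38. SNU-466 was above by 2.42 (log2, adjusted p = 1.05e-32) and AM-38 below by a difference of -5.71 (adjusted p = 5.53e-26, edgeR; background 10.4%).

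**Figure D4:**
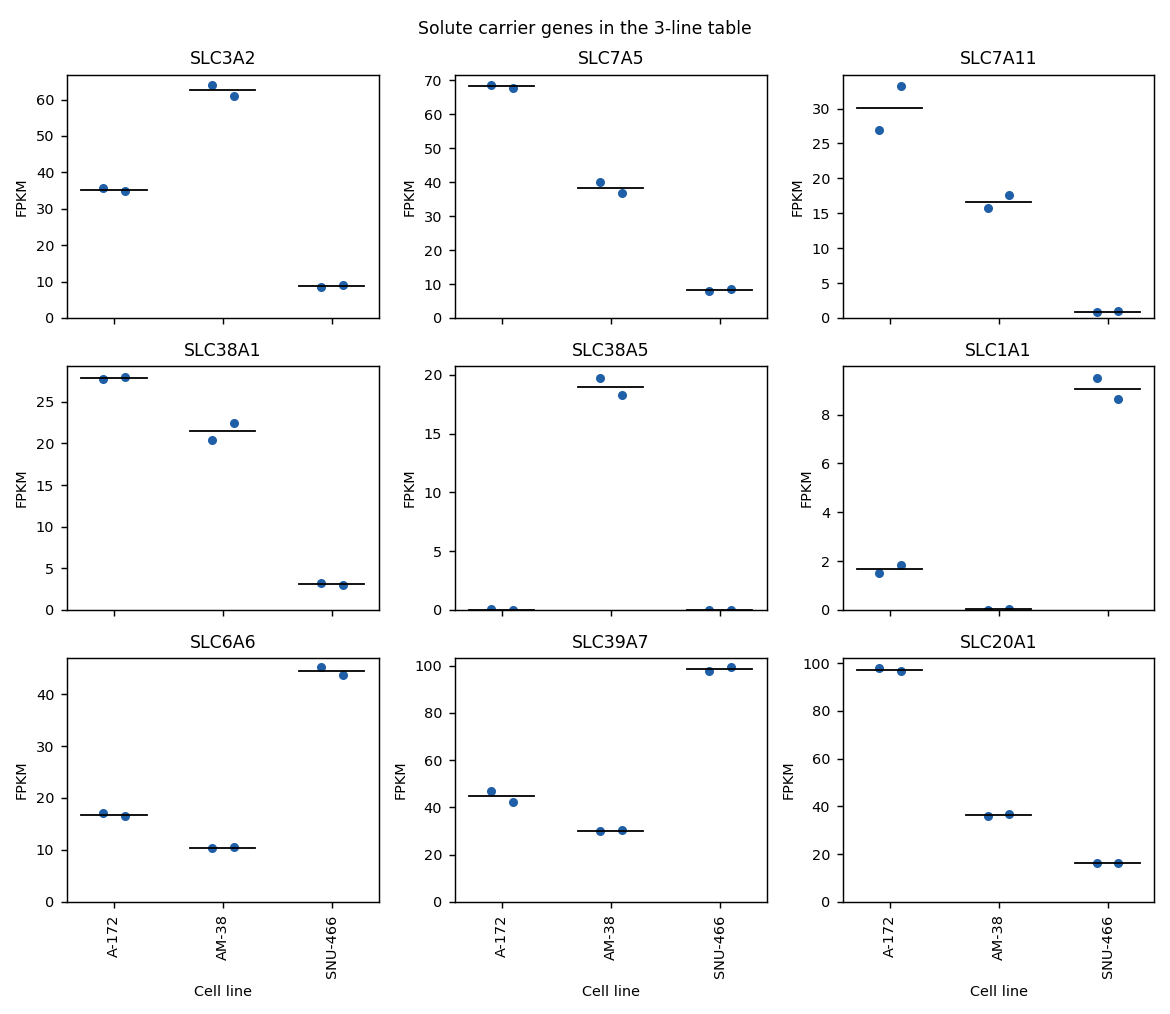
FPKM of 9 members in the 6 libraries of the 3-line table; each point is a library and each horizontal line the mean of 2. SLC3A2, SLC7A5, SLC7A11 and SLC38A1 are lowest in SNU-466, while SLC1A1, SLC6A6 and SLC39A7 are highest there.

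Of 5 carriers of neurotransmitters and related solutes, 4 were above in 1 line, against 64.8% of genes. SLC6A6, the taurine carrier, was at 45.1 and 43.6 in SNU-466, 17.2 and 16.5 in A-172 and 10.3 and 10.5 in AM-38, and SNU-466 was above A-172 by 1.40 on the log2 scale (adjusted p = 7.81e-43, edgeR). SLC6A9 was at 2.63 and 2.82 in A-172, 0.431 and 0.373 in AM-38 and 0.0449 and 0.107 in SNU-466, above in A-172 by 2.75 and below in SNU-466 by a log2 difference of -2.35. SLC6A2, the noradrenaline carrier, was read in A-172 (2.06 and 1.84 FPKM), with 3 reads in AM-38 and 0 in SNU-466. Exons of AC136621.1 overlap it on the same strand. SLC17A9 was at 6.14 and 5.23 in AM-38 from 1280 reads and at 0 reads in A-172 and SNU-466, which makes AM-38 at least 379-fold higher than SNU-466 and 411-fold higher than A-172 (against 3 reads over the line). The creatine carrier SLC6A8 was high throughout at 32.7 and 33.8 in SNU-466, 27.8 and 25.8 in A-172 and 14.7 and 13 in AM-38, and AM-38 was 2-fold or more under SNU-466 but not under A-172, so it was not called below every other line.

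Of the 15 carriers of sugars and carboxylates, 14 were tested and 11 were above in 1 line, against 64.8% of genes. SNU-466 was that line for 5 of the 11, and for 1624 of the 3265 genes above in some line. SLC2A3, the neuronal glucose transporter GLUT3, was at 20.9 and 21.4 in SNU-466, 7.05 and 7.03 in A-172 and 6.38 and 7.48 in AM-38. SNU-466 was above by 1.59 on the log2 scale (adjusted p = 1.07e-36, edgeR), and A-172 and AM-38 did not separate (adjusted p = 0.793). SLC2A14, a near copy of SLC2A3, was at 0.18 and 0.1 in SNU-466, 0.00919 and 0.00889 in A-172 and 0.00846 and 0 in AM-38, and reads may be split between them. SLC37A3, a carrier of internal membranes, was at 16.1 and 15.8 in SNU-466, 2.64 and 2.75 in AM-38 and 1.58 and 1.78 in A-172, above in SNU-466 by 2.57 (log2, adjusted p = 3.74e-51, edgeR).

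The 5 listed members of the monocarboxylate family, some members of which carry lactate, were all lowest in SNU-466. SLC16A1 and SLC16A3 of this family were not among the listed genes, so lactate transport as a whole is not described. SLC16A7 (MCT2) was at 2.24 and 2.58 in AM-38, 0.912 and 1.31 in A-172 and 0.0043 and 0 in SNU-466, the last from 1 read. AM-38 was above by 1.11 (log2, adjusted p = 8.2e-16, edgeR), and the call for SLC16A7 in AM-38 was lost without A-172 replicate 1, at 0.88, and by limma with a prior count of 0.5, at 1.14. SLC16A13 was at 5.14 and 4.81 in A-172, 1.56 and 1.57 in AM-38 and 0.385 and 0.523 in SNU-466, above in A-172 by 1.67 on the log2 scale (adjusted p = 2.36e-14, edgeR). SLC16A6, SLC16A9 and SLC16A12 were also below in SNU-466, with 0 and 0.0251, 0.421 and 0.655 and 0 and 0.0105 FPKM. Together 5 of 5 listed SLC16 members were below there, where 45.9% of genes were; this family was singled out after its values were seen. In A-172 the sodium-coupled lactate carrier SLC5A12 was at 1.66 and 1.85 against 0.0934 and 0.159 in AM-38, and the sugar carrier SLC2A12 at 1.65 and 1.81 against 0.0338 and 0.0721. SLC13A4, a sulfate carrier, was at 0.934 and 0.686 in SNU-466, 0.182 and 0.188 in AM-38 and 0.0766 and 0.0866 in A-172. A-172 was below AM-38 by a log2 difference of -1.17 (adjusted p = 0.0162, edgeR; background 4.41%). The call for SLC13A4 in A-172 was lost without any 1 of the A-172 or AM-38 libraries, with differences of -1.09 to -1.26, and by DESeq2 (-1.18).

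SLC20A1 was the most abundant of the 13 ion carriers at 97.9 and 96.5 in A-172, 36 and 36.6 in AM-38 and 16.2 and 16.3 in SNU-466. A-172 was above AM-38 by 1.42 on the log2 scale (adjusted p = 4.62e-45, edgeR) and SNU-466 below by -1.16. SLC9A7, a sodium proton exchanger of the Golgi, was at 19.8 and 20.7 in AM-38, 5.26 and 5.36 in A-172 and 2.11 and 2.26 in SNU-466, above in AM-38 by 1.93 on the log2 scale (adjusted p = 4.02e-46, edgeR). SLC12A8 was at 4.17 and 3.94 in A-172, 0.515 and 0.674 in AM-38 and 0 and 0.0274 in SNU-466, the last from 3 reads, and above in A-172 by 2.77 (log2, adjusted p = 1.22e-29, edgeR). The anion exchanger SLC4A2 was at 34.6 and 36.6 in SNU-466, 26.8 and 25.4 in A-172 and 10.0 and 8.76 in AM-38 and below in AM-38. The chloride cotransporter SLC12A2 (NKCC1) was at 4.33 and 4.38 in SNU-466, 2.18 and 2.19 in AM-38 and 1.25 and 1.27 in A-172 and SLC12A4 (KCC1) at 12.3 and 12.6 in SNU-466, 5.67 and 5.32 in AM-38 and 5.41 and 5.19 in A-172. Both were highest in SNU-466. Exons of LCAT overlap SLC12A4 on the same strand. The sodium calcium exchanger SLC8A1 was at 0.215 and 0.179 in SNU-466 against 2.33 and 2.39 in AM-38 and 2.97 and 2.94 in A-172. SLC26A9 had 20 reads in AM-38, 15 in A-172 and 0 in SNU-466, and SLC24A2 had 10 reads in SNU-466 and 0 in the other lines.

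SLC39A7, a zinc carrier of the endoplasmic reticulum, was the most abundant member of the 3-line table at 97.6 and 99.6 in SNU-466, 46.9 and 42.4 in A-172 and 29.8 and 30.4 in AM-38. SNU-466 was above A-172 by 1.14 on the log2 scale (adjusted p = 3.8e-37, edgeR), and the value for SLC39A7 in SNU-466 came to 0.83, under the 2-fold limit, with RLE scaling. The zinc and manganese importer SLC39A8 ran the other way, 8.08 and 8.59 in A-172, 3.18 and 3.23 in AM-38 and 0.25 and 0.324 in SNU-466, above in A-172 and below in SNU-466. SLC39A11 was also below in SNU-466 (1.65 and 1.53 against 6.62 and 6.38 in A-172). The zinc carriers SLC30A2 and SLC39A4 were above in SNU-466 at 0.559 and 0.658 and 0.438 and 0.358, with 5 reads or fewer in each of the other lines.

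Among the 7 organic anion and cation carriers, SLC22A17, a receptor for the iron-carrying protein lipocalin, was at 21.1 and 22.9 in SNU-466, 3.24 and 2.75 in A-172 and 0.397 and 0.647 in AM-38. SNU-466 was above by 2.88 on the log2 scale (adjusted p = 1.17e-45, edgeR) and AM-38 below by -2.53. SLCO1B3, an organic anion carrier known from liver, was at 3.07 and 3.17 in AM-38, 2.76 and 3.19 in A-172 and 0 reads in SNU-466. A-172 and AM-38 did not separate (adjusted p = 0.665, edgeR). They were at least 129-fold and 135-fold higher than SNU-466, whose 0 reads allow up to 0.0231 FPKM. Its near copy SLCO1B1 had 16, 10 and 0 reads in A-172, AM-38 and SNU-466 and was not tested, and reads may be split between the pair. SLC22A4, the ergothioneine carrier, was at 5.97 and 4.67 in A-172, 1.37 and 1.68 in AM-38 and 0.628 and 0.412 in SNU-466, above in A-172 by 1.80 on the log2 scale (adjusted p = 1.39e-17, edgeR).

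SLC23A2, which takes up vitamin C, was at 50.6 and 49.4 in SNU-466, 16.1 and 15.6 in A-172 and 10.1 and 10.4 in AM-38, above in SNU-466 by 1.66 on the log2 scale (adjusted p = 9.22e-48, edgeR). SLC44A1 was at 24.9 and 24.6 in SNU-466, 14.6 and 15.5 in A-172 and 5.36 and 5.37 in AM-38 and below in AM-38 by a log2 difference of -1.49 (adjusted p = 1.78e-41, edgeR). The nucleoside carrier SLC28A3 was at 0.826 and 0.615 in SNU-466, 0.219 and 0.183 in A-172 and 0.0183 and 0.00977 in AM-38, above in SNU-466 and below in AM-38. The folate carrier SLC46A1 was at 1.5 and 1.53 in SNU-466 against 0.419 and 0.393 in A-172, and SLC44A5 at 0.0843 and 0.0404 against 1.23 and 1.46.

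Of 7 mitochondrial and Golgi carriers, 2 were above in some line, against 64.8% of genes, and 3 below, against 60.7%. SLC25A13, which exchanges aspartate and glutamate, was at 32.3 and 32.1 in SNU-466, 15 and 14.3 in A-172 and 9.1 and 8.54 in AM-38, above in SNU-466 by 1.14 on the log2 scale (adjusted p = 2.33e-28, edgeR); SLC25A13 in SNU-466 was at 0.83 with RLE scaling. SLC25A39, a carrier of mitochondrial glutathione, was at 31.6 and 31.7 in A-172, 31.2 and 27.4 in AM-38 and 12 and 12.8 in SNU-466, and SLC25A37 (mitoferrin, iron) at 16.4 and 16.9 in A-172, 13.7 and 14 in AM-38 and 2.65 and 2.78 in SNU-466; both were below in SNU-466. SLC25A22, which carries glutamate, was above in A-172 with 16.8 and 16.8 in A-172, 7.15 and 5.44 in AM-38 and 3.34 and 3.35 in SNU-466. The ADP and ATP carrier SLC25A4, which has processed copies that can share reads, was below in AM-38 with 9.43 and 8.24 in SNU-466, 5.36 and 5.15 in A-172 and 1.16 and 1.49 in AM-38.

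**Figure D5:**
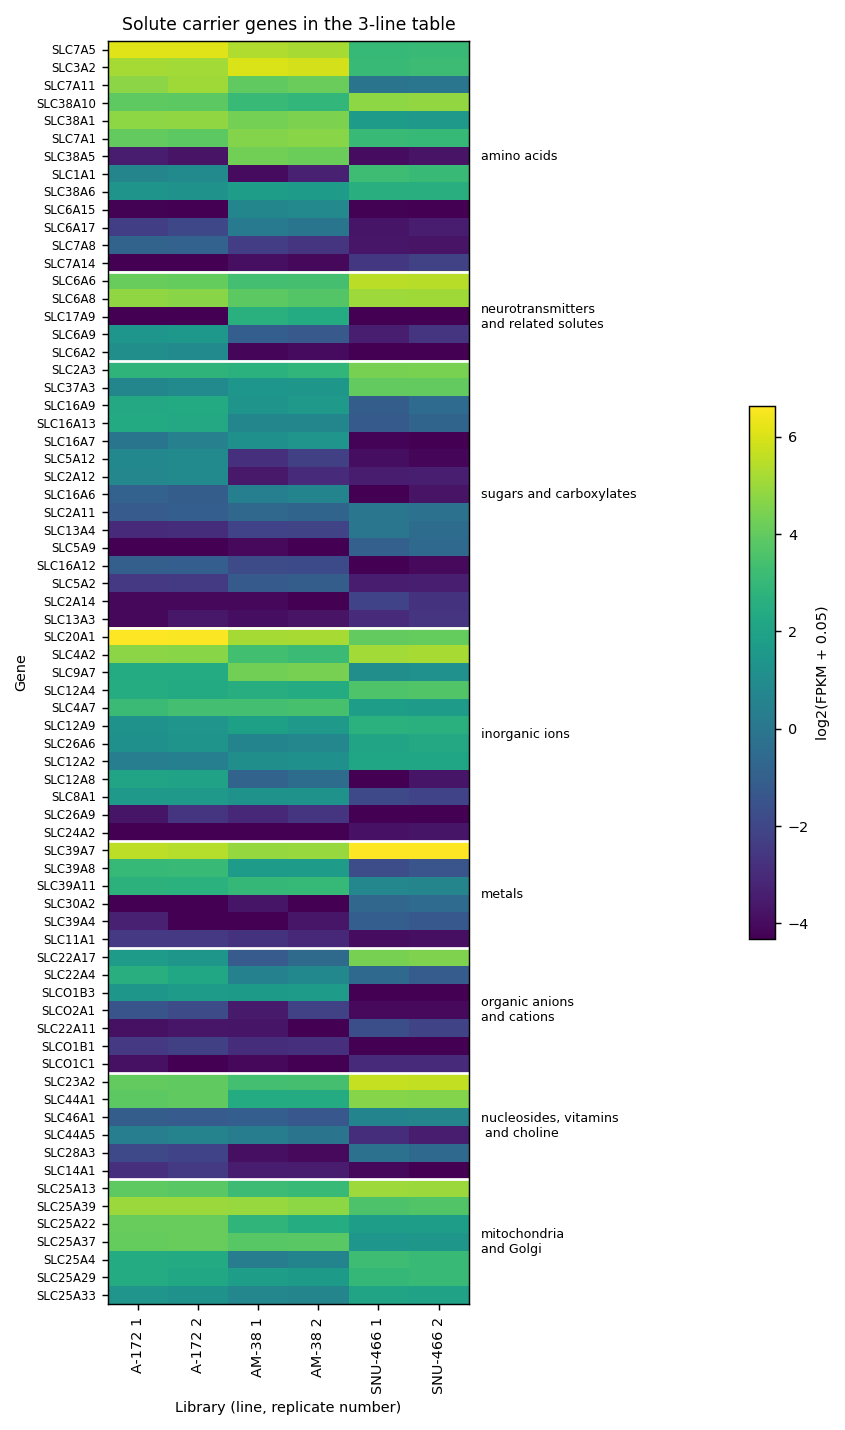
Level of the members of the 3-line table, less 1 that is not reported, in each of the 6 libraries, as log2(FPKM + 0.05), grouped by substrate class. Within most classes some members are brightest in SNU-466 and others darkest there.

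Among the 3 lines, 9 of 72 members had 0 reads in both libraries of at least 1 line, against 24.2% of genes. A-172 had 5 (SLC7A14, SLC24A2, SLC30A2, SLC17A9 and SLC5A9, where 6.26% of genes were at 0), AM-38 had 1 (SLC24A2, 5.72%), and SNU-466 had 5 (SLC26A9, SLC17A9, SLC6A2, SLCO1B1 and SLCO1B3, 15.9%). A-172 was above in 14 members (13.1% of genes) and AM-38 in 8 (19.4%). AM-38 was below in 6 (10.4%) and A-172 in 1 (4.41%).

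The 10 genes in both tables can be set side by side, though the tables were deposited and fitted apart and no test joins them. SLC7A11 had line means from 3.17 FPKM in KALS-1 to 141 in T98G, and 0.902 in SNU-466 was under all 10 other lines. SLC38A5 was at or under 0.172 in 10 lines and at 19.0 in AM-38. SLC17A9 was at 5.68 in AM-38, 0.303 in LN-18 and under 0.005 in 9 lines. SLC6A15 was over 1 FPKM in U-87MG, U-138MG, KNS-42 and AM-38 and under 0.03 in the other 7. SLC20A1 was between 15.6 (KNS-42) and 106 (U-87MG) in all 11 lines. SLC44A1 ran from 3.96 in T98G to 24.7 in SNU-466. SLC6A9 ran from 0.0758 in SNU-466 to 34.4 in T98G, SLC12A8 from 0.0137 in SNU-466 to 15.4 in T98G, SLC24A2 from 0 reads in U-138MG, A-172 and AM-38 to 2.19 in U-87MG, and SLC26A9 from 0 reads in LN-229, T98G and SNU-466 to 1.15 in KNS-42.

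Genes that work beside these carriers were counted from lists of other transporters and of the enzymes that use the carried solutes. Among the 8 lines, 12 of 12 ABC transporters differed (99.7% of genes) and 7 were above in 1 line (42.4% of genes), among them ABCA8 at 2.17 and 1.68 in KNS-42. ABCC9, which was above in no single line, was at 4.93 and 4.32 in U-87MG and 4.71 and 3.46 in U-138MG. Of 4 amino acid enzymes 2 were above in T98G, against 3.96% of genes. GCLC, which uses cysteine to start glutathione synthesis, was at 48.4 and 65.2 in T98G, 24.3 and 23.2 in LN-18, 8.23 and 7.54 in U-87MG, 4.74 and 4.64 in KNS-42, 4.1 and 4.15 in LN-229, 3.96 and 2.33 in SNU-1105, 2.66 and 2.61 in KALS-1 and 1.71 and 1.28 in U-138MG. T98G and LN-18 were highest for it, as for SLC7A11. CBS, which makes cystathionine, was at 4.7 and 4.65 in T98G, and GPT2 at 38.9 and 31.4 in T98G and 26.6 and 28.5 in LN-18. Of 3 genes of metal handling, the ferritin light chain FTL was above in T98G (6988 and 12736) and HEPH in U-138MG (3.2 and 3.9).

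Among the 3 lines, 98.3% of all genes differed, 64.8% were above in some line and 60.7% below. Of 14 amino acid enzymes 14 differed, 7 were above in some line and 10 below. GLUL, which makes glutamine, was at 6.72 and 6.76 in A-172, 6.87 and 6.51 in AM-38 and 0.00467 and 0.00806 in SNU-466. IDO1 was at 1.69 and 1.4 in AM-38, 0.132 and 0.0853 in A-172 and 0 reads in SNU-466, and TDO2, which like IDO1 breaks down tryptophan, at 18.7 and 20.8 in A-172, 0.0224 and 0.116 in SNU-466 and 0.0269 and 0.0572 in AM-38. Of 6 regulators of transporters 5 differed. WNK4, a kinase acting on chloride cotransporters, was at 6.37 and 5.92 in AM-38, 0.213 and 0.169 in A-172 and 0.123 and 0.0578 in SNU-466, WNK2 at 0.183 and 0.256 in SNU-466, 0.0244 and 0.00372 in AM-38 and 0 and 0.00734 in A-172, and EPAS1 at 121 and 119 in SNU-466, 4.76 and 5.04 in A-172 and 2.29 and 2.33 in AM-38. Of 13 P-type pumps 13 differed, with 8 above and 8 below in some line, against 64.8% and 60.7% of genes. Of 9 tested ABC transporters 9 differed, as did 5 of 5 tested aquaporins, of which AQP1 was at 87.5 and 88.5 in SNU-466, 5.44 and 5.6 in A-172 and 0.0723 and 0.108 in AM-38. Of 9 genes of metal handling 9 differed, of 3 carbonic anhydrases 3, and of 6 genes of glycolysis 5.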

How the data were processed

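RNA of 22 libraries (11 lines, 2 each) was selected for poly(A) and sequenced strand-specifically, per the labels' protocols. Per the submitters' processing notes, the tools named are HISAT2 2.2.1, StringTie 1.3.3, HTSeq 0.6.0, cutadapt 1.9.1 and FastQC 0.10.1, with the build hg38. The authors deposited raw read counts per gene, FPKM values and gene lengths in 2 tables. The annotation release, the use of strand in counting and the choice of listed genes are not given in the sources used here.

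Gene IDs were matched to symbols for 2220 of 2221 and 5382 of 5383 rows. Library totals were recovered from counts, lengths and FPKM of genes with at least 20 FPKM and 200 reads, since the tables hold part of each library. Genes were filtered by filterByExpr and fitted apart per table with edgeR 4.0.16 (quasi-likelihood, R 4.3.3) on the deposited counts, with Benjamini-Hochberg adjustment over all tested genes. Neighbouring lines in an order were compared within each pair of lines. A call needed an adjusted p under 0.05 and 2-fold. FPKM limits for 0 reads are those of 3 reads over the line and cover counting error only. The fit was also run on simulated counts with the same spread for every gene and line, unlike these libraries. That run does not show how the calls behave under unequal spread.

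Alternatives were TMM and RLE factors, DESeq2 1.42.0, limma 3.58.1, other filters, no fold limit, a replicate block, and leaving out T98G or each library. Figures add 0.05 to FPKM. Genes given in every library are, per line, the 4 highest and the 2 lowest by ratio to the next line at 2 FPKM or more, the leading member of each substrate class, and genes in both tables; others are named more briefly, and 1 member is counted in the totals but not reported here. At most 3 genes per related list are named, by range. The members and lists were chosen with earlier results of these data known.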

Additional observations from a re-analysis of the deposited data

How the results depend on the processing

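Of 91 single calls of a member above or below every other line, 73 held under every alternative that tested the gene and line, and 0 reversed. SLC2A14 in SNU-466 was tested under 13 alternatives, where other calls such as SLC2A3 in SNU-466 had 14. The setting with no fold threshold could not lose a call. Below every other line among the 8 lines there were 3 members, against 5 without the T98G line, 6 with no fold threshold, and 1 to 3 when each library was left out in turn. Above every other line among the 3 lines there were 40, against 64 with no fold threshold. The cause was not tested beyond what each setting removes. RLE scaling moved SNU-466 against the recovered totals by -0.28 on the log2 scale and AM-38 by 0.24, and the members above and below in SNU-466 went from 18 and 31 to 15 and 34. Among the 8 lines, the shift of TMM and RLE scaling ran from -0.32 to 0.55. With the replicate number as a block, 38 members differed, 9 were above and 3 below among the 8 lines, and 68, 39 and 38 among the 3 lines. Over the listed genes, same-numbered libraries did not deviate together (correlations of -0.142 to 0.0853 over 28 pairs of lines and -0.0395 to 0.0667 over 3). This check cannot detect a batch that touches few genes or acts differently between lines. Depth limits members of few reads: 9 to 16 members a line had at most 3 reads in each library.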
